A study of Mus musculus with 2 samples.

Results

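The genes described here are 10 regulators of pluripotency, taken from the deposited expression table by an exact match of the gene symbol, and all 10 were found among its 19559 genes. They are Pou5f1, Sox2, Nanog, Esrrb, Nr0b1, Tcfcp2l1 (current symbol Tfcp2l1), Sall4, Zfp42, Utf1 and Lin28 (current symbol Lin28a). RNA was sequenced from mouse embryos at E3.75, the late blastocyst, with 1 library of inner cell masses (ICMs) freed of their outer cells by immunosurgery and 1 library of whole blastocysts. All embryos came from B6CBAF1 mothers and CD-1 fathers, carried no stated mutation and received no stated treatment, and the sources used here do not give the number of embryos behind each library. The whole blastocyst contains its own ICM, so the comparison sets a part against the whole. Below, concentration in the ICM means only the ratio of ICM to whole-blastocyst RPKM. For a gene confined to the ICM, the ICM's share of blastocyst RNA limits that ratio, and the share is not known here. With 1 library each, location in the inner cells and other differences between the libraries cannot be told apart.

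These genes are known from embryonic stem cells as the circuit that keeps cells able to form every tissue of the fetus. OCT4 (the product of Pou5f1) and SOX2 bind DNA side by side at joined octamer and SOX sites, NANOG joins them at many of the same enhancers, and they activate their own genes and each other's. ESRRB, TFCP2L1, DAX1 (Nr0b1) and SALL4 feed into this core, REX1 (Zfp42) and UTF1 are classic markers and targets of it, and LIN28A acts on RNA. The set is therefore not made of DNA-binding transcription factors alone: UTF1 is a chromatin-associated protein, and LIN28A is an RNA-binding protein that blocks the maturation of let-7 microRNAs. In the blastocyst the circuit is best known from the epiblast, the part of the ICM that gives rise to the fetus, while the outer trophectoderm builds the placenta.

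On listed genes there were 4125479 reads from the ICM and 9271198 from the whole blastocyst. Each value is a read count or an RPKM, which divides reads by the gene's length and by a total for the library. With 1 library per group there was no replicate and no test of the difference between groups. The 95% intervals below are exact and cover counting error only, since the cDNA was amplified without molecular identifiers and its reads are not independent molecules. RPKM was lower in the ICM for most genes. The median log2 difference was -0.66 over the 3013 genes that reached an RPKM of 5 in both, so each ratio is also given centred on that median, which multiplies it by 1.58. All 14 trophectoderm markers examined were at least 2-fold lower in the ICM library (against 44.0% of genes reaching an RPKM of 1 in either library). Like every gene list here, these markers were chosen with earlier results of the data known, so the count is not an independent check. The summed RPKM of the markers was 110.7 in the ICM and 2917 in the whole blastocyst. Elf5 and Krt7, 2 of the markers, had no ICM read. The farthest were the keratin gene Krt18, with an RPKM of 29.4 in the ICM and 1418 in the whole blastocyst, and Dppa1, with 6.12 in the ICM and 339.8 in the whole blastocyst. The nearest besides Elf5 were the lineage factors Tead4, with 1.44 in the ICM and 12.2 in the whole blastocyst, and Tcfap2c, with 4.59 in the ICM and 32.0 in the whole blastocyst. In bulk RNA, fewer cells of a type and less RNA per cell cannot be told apart.

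As deposited, the 2-fold threshold split the regulators into a higher group and a group within 2-fold, and the split moved with the scaling. In the ICM 6 of the 10 genes, Nr0b1, Utf1, Esrrb, Lin28, Pou5f1 and Nanog, exceeded the whole blastocyst at least 2-fold. The other 4, Sox2, Sall4, Zfp42 and Tcfcp2l1, stayed within 2-fold, and no gene was 2-fold lower. Among the 8981 genes that reached an RPKM of 1 in either library, 8.96% were 2-fold or more above the whole blastocyst and 44.0% were 2-fold or more below it. Relative to the centre, 8 of the 10 were at least 2-fold higher, against 16.9% of all genes, and none was 2-fold lower, against 20.5%. The median log2 difference of the 10 genes was 1.46, compared with -0.84 over all genes tested. Other ways of scaling or filtering left 6 or 8 of the 10 genes higher and none lower. With 6 higher, the shares of all genes higher and lower were 11.5% and 51.2% with a pseudocount of 0.1, 4.12% and 20.2% without a filter, and 7.99% and 41.8% over genes with 50 or more reads. With 8 higher, they were 22.0% and 29.5% as TPM, 18.7% and 21.1% after quantile normalization, and 19.1% and 25.7% scaled to listed reads. An RPKM of 1 was reached by all 10 genes in the ICM and by 7 in the whole blastocyst, where Nanog, Esrrb and Nr0b1 stayed under it.

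**Figure D1:**
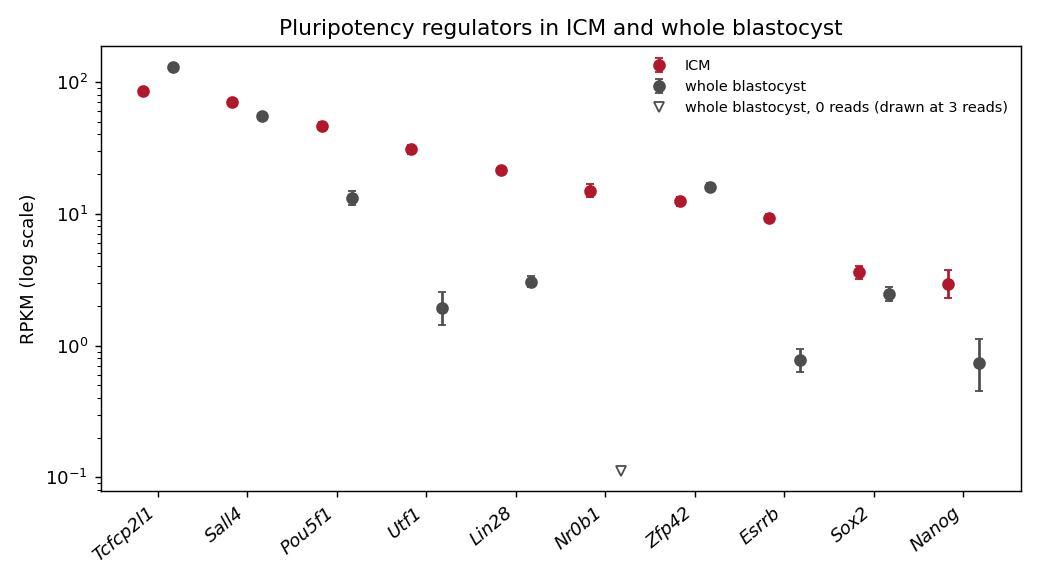
RPKM (log axis) of the 10 regulators in the ICM library (red) and the whole-blastocyst library (grey), ordered by ICM level, with 95% Poisson intervals of the reads. The ICM point lies above the whole-blastocyst point for all but Zfp42 and Tcfcp2l1, whose order turns under other scalings, and Nr0b1, without a whole-blastocyst read, is drawn there as an open triangle at the level of 3 reads.

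Among the core trio, Pou5f1 and Nanog were concentrated in the ICM by similar factors and Sox2 by less. Pou5f1 had an RPKM of 46.0 (853 reads) in the ICM and 13.2 (290 reads) in the whole blastocyst, a ratio of 3.49 (3.05 to 4.003), or 5.51 (4.82 to 6.32) centred. Nanog had 2.94 (71 reads) in the ICM and 0.734 (21 reads) in the whole blastocyst, a ratio of 4.01 (2.44 to 6.88), or 6.33 (3.85 to 10.8) centred. With 21 whole-blastocyst reads, Nanog had the widest interval, relative to its ratio, of the genes read in both libraries. How reads shared with its annotated pseudogenes were counted is not stated. Sox2 had 3.60 (335 reads) in the ICM and 2.47 (273 reads) in the whole blastocyst, a ratio of 1.46 (1.24 to 1.72), or 2.30 (1.95 to 2.71) centred. The ratio of Sox2 thus lay below those of its partners, and its interval did not overlap theirs.

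The same contrast can be read without any scaling between libraries, by dividing the ratio of one gene by the ratio of another. The 45 pairs of the 10 genes were compared this way, with intervals widened so that the 45 together keep 95% (99.889% each). Pou5f1 was 2.40 times as concentrated in the ICM as Sox2 (1.69 to 3.41). Nanog was 2.76 times as concentrated as Sox2 (1.19 to 7.12). For Pou5f1 against Nanog the ratio was 0.870 and its interval of 0.340 to 1.99 included 1, so those genes could not be told apart at this depth.

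OCT4 and SOX2 meet on DNA at a joined site, and the letters of such a site stand near the start of Nanog. RefSeq start windows of assembly GRCm38.p6, from 250 bases before to 50 after a gene's start, were found for 9 of the 10 genes (12 windows, some genes having more than 1 start). Sall4 was not matched. The files themselves use mm9 and give no positions. Searched on both strands were the octamer core ATGCAAA, the SOX core CATTGT, the composite of CATTGT, 1 free base and ATGCNAA (which overlaps both), the ESRRB site TCAAGGTCA, the nuclear receptor core site AGGTCA (which the ESRRB site contains), the TFCP2L1 pair of CCAG and CCNG with 6 free bases between, the KLF and SP box CCNCNCCC and the TATA box TATAAA. Shown are the windows of the 3 genes with an octamer (Nanog, Sox2 and Zfp42) and of the genes at both ends of the ratio range (Nr0b1 and Tfcp2l1). They are given 5′ to 3′ on the gene's strand, and capitals mark matches to these motifs other than the KLF and SP box.
Nanog, chr6:122707239-122707538, plus strand: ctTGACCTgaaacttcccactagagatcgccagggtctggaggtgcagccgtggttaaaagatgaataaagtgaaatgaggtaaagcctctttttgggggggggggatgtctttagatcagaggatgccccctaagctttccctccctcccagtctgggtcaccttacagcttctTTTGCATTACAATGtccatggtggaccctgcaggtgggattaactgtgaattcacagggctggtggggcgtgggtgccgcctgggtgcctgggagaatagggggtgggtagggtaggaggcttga
Sox2, chr3:34649745-34650044, plus strand: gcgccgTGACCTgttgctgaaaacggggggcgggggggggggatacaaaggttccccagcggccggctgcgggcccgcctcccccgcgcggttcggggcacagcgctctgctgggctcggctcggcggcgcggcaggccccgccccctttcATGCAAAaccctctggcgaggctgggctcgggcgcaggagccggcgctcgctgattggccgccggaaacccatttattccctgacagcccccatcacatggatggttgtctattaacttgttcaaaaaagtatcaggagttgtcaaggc
Zfp42, chr8:43306960-43307259, minus strand: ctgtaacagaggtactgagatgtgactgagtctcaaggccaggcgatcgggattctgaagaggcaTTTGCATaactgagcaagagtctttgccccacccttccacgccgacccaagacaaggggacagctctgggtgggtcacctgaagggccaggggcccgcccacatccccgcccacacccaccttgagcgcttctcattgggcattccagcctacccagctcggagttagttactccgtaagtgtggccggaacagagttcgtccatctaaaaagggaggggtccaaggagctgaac
Nr0b1, chrX:86191525-86191824, plus strand: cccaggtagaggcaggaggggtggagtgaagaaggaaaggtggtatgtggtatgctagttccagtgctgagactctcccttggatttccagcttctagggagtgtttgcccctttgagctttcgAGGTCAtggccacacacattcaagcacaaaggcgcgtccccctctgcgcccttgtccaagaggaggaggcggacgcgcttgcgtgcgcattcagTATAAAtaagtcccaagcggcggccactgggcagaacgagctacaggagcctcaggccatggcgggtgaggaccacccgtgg
Tfcp2l1, chr1:118627695-118627994, plus strand: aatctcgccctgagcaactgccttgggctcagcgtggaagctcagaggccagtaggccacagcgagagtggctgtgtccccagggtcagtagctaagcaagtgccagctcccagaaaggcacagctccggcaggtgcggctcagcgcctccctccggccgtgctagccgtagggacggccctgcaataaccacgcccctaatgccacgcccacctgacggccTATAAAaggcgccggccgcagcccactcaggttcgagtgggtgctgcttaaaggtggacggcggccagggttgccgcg

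In the Nanog window the octamer and SOX letters stand next to each other on the minus strand, beginning at position -75 from this start. The composite was found in 2 of 32851 start windows (0.00609%), both of them windows of Nanog that overlap each other. Its letters were written with the joined OCT4 and SOX2 site of Nanog known, so this share describes how rare the exact spelling is and no more. The octamer core alone stood in 4.63% of all windows, and the SOX core in 12.6%. Sox2 carried the octamer at position -99 on its own strand, and Zfp42 at position -185 on the opposite strand. These 3 genes had ICM ratios of 4.01 (Nanog), 1.46 (Sox2) and 0.777 (Zfp42). The SOX core also stood in a window of Pou5f1, of Esrrb and of Lin28a. A TATA box, present in 13.6% of windows, was found at position -32 in Nr0b1 and at -28 in Tfcp2l1, the genes with the highest and the lowest ratio. The nuclear receptor core site, in 16.3% of windows, was found in Pou5f1, Sox2, Nanog and Nr0b1, and the ESRRB site (0.423% of windows) in none of the 12 windows. The TFCP2L1 pair, in 10.3% of windows, stood in that of Lin28a, and the KLF and SP box, in 49.5%, in a window of each of the 9 genes. A match is a string of letters in this window and was not tested as a binding site.

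Both nuclear receptor genes were strongly concentrated in the ICM. Nr0b1, which encodes DAX1, an orphan receptor without a classical DNA-binding domain that binds OCT4 in mouse embryonic stem cells, had an RPKM of 14.99 (337 reads) in the ICM and no read in the whole blastocyst. With the whole blastocyst set at a floor of 3 reads the ratio was 133, which leaves out counting error in the ICM, and by the lower exact 95% limit Nr0b1 was at least 108-fold higher. In all, 12 genes, Nr0b1 included, had at least 337 ICM reads and none in the whole blastocyst, although the whole blastocyst contains an ICM. Its rank was 14 among the 8981 differences. Esrrb, which encodes the estrogen-related receptor that activates much of the stem cell circuit, had 9.32 (992 reads) in the ICM and 0.776 (98 reads) in the whole blastocyst. That is a ratio of 12.02 (9.76 to 14.9), or 18.96 (15.4 to 23.6) centred.

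The other DNA-binding factors were well covered in both libraries, and none passed 2-fold as deposited. Tcfcp2l1, a factor of the grainyhead-related family that sustains naive pluripotency downstream of LIF and STAT3, had the highest RPKM of the 10 in both libraries, with 85.3 (25160 reads) in the ICM and 130.3 (45618 reads) in the whole blastocyst. It ranked 151 among all genes by RPKM in the ICM and 222 in the whole blastocyst. Sall4, a zinc finger protein that binds OCT4 and NANOG and recruits the NuRD repressor complex, had 70.04 (5652 reads) in the ICM and 54.9 (5262 reads) in the whole blastocyst. Its ratio was 1.28 (1.23 to 1.32), and 2.01 (1.94 to 2.09) centred, which takes it narrowly past 2-fold.

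The marker gene Zfp42, whose protein REX1 arose in mammals as a retrocopy of the YY1 gene, had 12.4 (693 reads) in the ICM and 16.0 (1058 reads) in the whole blastocyst, with a pseudogene of its own whose reads may be shared. The direction of Zfp42 and Tcfcp2l1 depended on the scaling: as deposited their ratios were 0.777 (0.705 to 0.856) and 0.655 (0.645 to 0.665), whereas centring gave 1.23 (1.11 to 1.35) and 1.03 (1.02 to 1.05), and TPM, quantile and listed-read scaling also put both above 1. What did not depend on scaling was their place among the 10. Tcfcp2l1 was the least concentrated: Pou5f1 was 5.33 times (4.27 to 6.71) and Sall4 1.95 times (1.82 to 2.08) as concentrated in the ICM. Among all genes tested, Tcfcp2l1 lay at the 58.5th percentile of the difference and Zfp42 at the 67.3rd.

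Utf1 and Lin28 were among the most concentrated. Utf1, whose protein binds chromatin and is needed for stem cells to differentiate properly, had an RPKM of 30.8 (683 reads) in the ICM and 1.94 (51 reads) in the whole blastocyst. Its ratio was 15.9 (11.95 to 21.6), or 25.1 (18.9 to 34.0) centred. Lin28 had 21.4 (2423 reads) in the ICM and 3.06 (412 reads) in the whole blastocyst, a ratio of 6.98 (6.29 to 7.77), or 11.01 (9.92 to 12.3) centred. Lin28b, its paralog, had an RPKM of 0.390 (71 reads) in the ICM and 0.741 (160 reads) in the whole blastocyst. It was chosen after its values were seen.

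**Figure D2:**
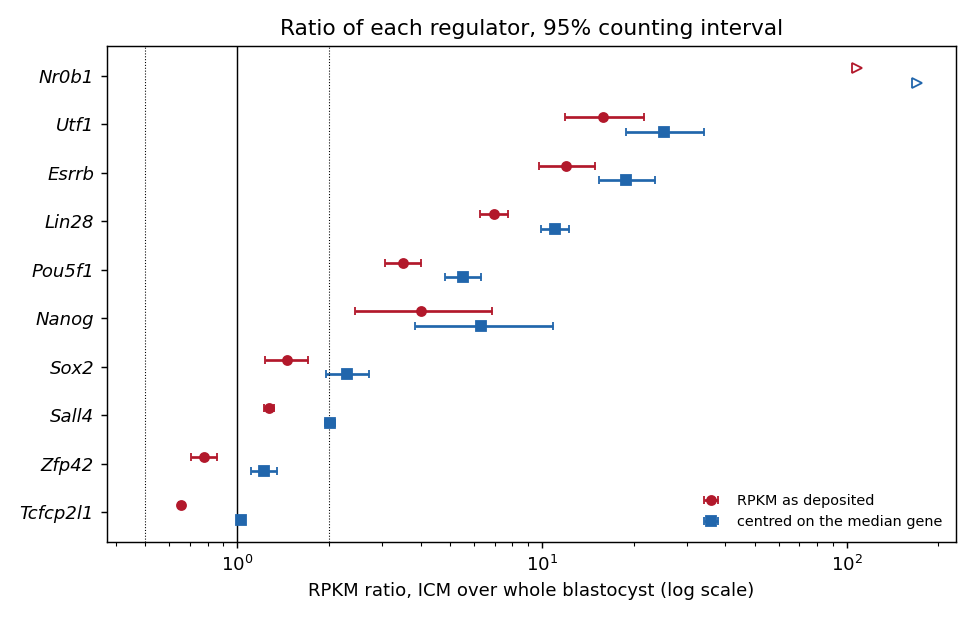
RPKM ratio of ICM over whole blastocyst (log axis) for each regulator, as deposited (red circles) and centred on the median gene (blue squares), with 95% counting intervals, a solid line at 1 and dotted lines at 2-fold. Open triangles for Nr0b1 stand at the lower limit, and Zfp42 and Tcfcp2l1 lie below 1 as deposited and above it when centred.

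Ordered by the log2 difference, the genes ran from Nr0b1 through Utf1, Esrrb, Lin28, Pou5f1, Nanog, Sox2, Sall4 and Zfp42 to Tcfcp2l1. By the RPKM ratio, without the pseudocount, Nanog (4.01) stood above Pou5f1 (3.49). Of the 45 pairs, 41 had an interval that excluded 1. The 4 that did not were Utf1 with Esrrb (1.32, 0.734 to 2.46), Lin28 with Nanog (1.74, 0.687 to 3.92), Pou5f1 with Nanog and Sox2 with Sall4 (1.14, 0.867 to 1.51). In each of the other pairs the ratios differed beyond the counting error of reads. That error leaves out amplification and differences between libraries, which were not measured. Nr0b1 was at least 3.07 times as concentrated as Utf1, by the lower limit of that pair. Utf1 was 24.3 times as concentrated as Tcfcp2l1 (15.4 to 40.8), the widest contrast among genes read in both libraries.

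**Figure D3:**
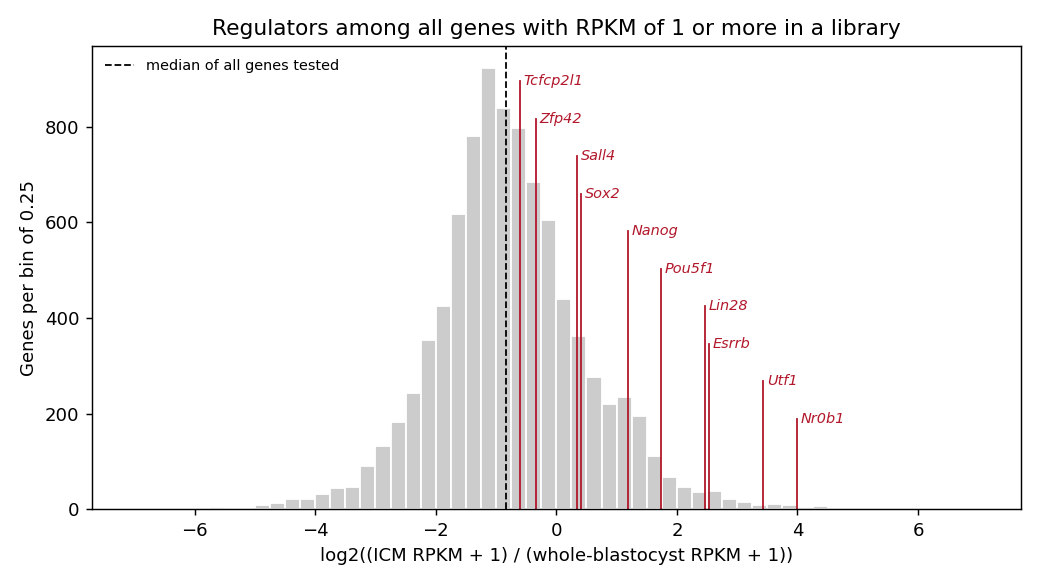
Histogram of log2((ICM RPKM + 1)/(whole-blastocyst RPKM + 1)) over 8981 genes in bins of 0.25, with each regulator marked in red and the median of all genes, -0.84, as a dashed line. All 10 regulators lie to the right of that median, from -0.61 for Tcfcp2l1 to 3.999 for Nr0b1.

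The composition of the set differed between the libraries. Tcfcp2l1 made up 28.7% of the summed RPKM of the 10 genes in the ICM and 58.3% in the whole blastocyst. Without it the other genes summed to 211.5 in the ICM and 93.1 in the whole blastocyst. By RPKM in the ICM the order of levels was Tcfcp2l1, Sall4, Pou5f1, Utf1, Lin28, Nr0b1, Zfp42, Esrrb, Sox2 and Nanog. By RPKM, only the neighbours Sox2 and Nanog did not differ beyond counting error there, with a ratio of 1.22 (0.944 to 1.60). In the whole blastocyst the order was Tcfcp2l1, Sall4, Zfp42, Pou5f1, Lin28, Sox2, Utf1, Esrrb, Nanog and Nr0b1. There Sox2 and Utf1 (1.28, 0.943 to 1.76) and Esrrb and Nanog (1.06, 0.655 to 1.78) did not differ beyond it, and Nanog and Nr0b1 were not compared.

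Levels between genes depend on the gene length the authors divided by, which the ICM to whole-blastocyst ratios do not. The length behind RPKM was divided by that of the longest GENCODE M21 transcript (GRCm38, used for lengths only) and set to 1 for the median of 6954 genes. It was 2.96 for Sox2 and 0.713 for Nanog, and its 5th and 95th percentiles over those genes were 0.206 and 2.21. Counted as reads per kilobase of the longest transcript, an alternative chosen after seeing the data, Sox2 exceeded Nanog 5.07-fold in the ICM (3.92 to 6.65) and 13.97-fold in the whole blastocyst (8.96 to 22.9). By RPKM those values were 1.22 in the ICM and 3.37 (2.16 to 5.53) in the whole blastocyst. Pou5f1 exceeded Sox2 12.8-fold by RPKM in the ICM and 3.85-fold on the longest transcript. Nanog had the fewest reads per kilobase of the longest transcript of the 10 in the ICM, and Tcfcp2l1 and Sall4 the most in both libraries. The genes between them changed order in the ICM, to Lin28, Pou5f1, Utf1, Zfp42, Esrrb, Nr0b1 and Sox2. In the whole blastocyst only Lin28 and Sox2 changed places.

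Other genes of the pluripotency network lay on both sides. Of 27 genes listed, 23 reached an RPKM of 1 in a library and were measured. Of these, 10 were 2-fold or more above the whole blastocyst in the ICM, 5 lower and 8 within 2-fold, with a median log2 difference of 0.64 (13 higher and 3 lower relative to the centre). Over the 8981 genes tested, 8.96% passed 2-fold upward and 44.0% downward (16.9% and 20.5% once centred), so this list leaned towards the ICM. The 3 highest were Tdgf1, the Nodal co-receptor, with an RPKM of 170.4 in the ICM and 21.5 in the whole blastocyst, the adhesion gene Jam2 with 16.0 in the ICM and 1.60 in the whole blastocyst (59 ICM and 7 whole-blastocyst reads), and Tbx3, a T-box factor of the naive state, with 22.1 in the ICM and 3.73 in the whole blastocyst. The lowest were Klf5, a Krüppel-like factor, with 3.37 in the ICM and 18.8 in the whole blastocyst, and Nr5a2, a nuclear receptor that can drive Pou5f1, with 4.94 in the ICM and 23.6 in the whole blastocyst. The ligand gene Nodal (54 ICM reads) had, like Nr0b1, no read in the whole blastocyst, with a ratio of 21.4 at the floor of 3 reads and a lower exact 95% limit of 16.8. Nodal was chosen after its values were seen.

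Genes for proteins that work with OCT4, NANOG and SALL4 were mostly within 2-fold as deposited. Of 30 such cofactors, all measured, 3 were 2-fold lower in the ICM on the log2(RPKM + 1) scale, none was 2-fold higher and 27 lay between, with a median of -0.35 (3 higher and none lower relative to the centre). Among all genes tested 44.0% were lower and 8.96% higher (20.5% and 16.9% relative to the centre). The highest was Sall1, a relative of Sall4, with an RPKM of 2.65 in the ICM and 0.946 in the whole blastocyst. Its RPKM ratio was 2.80 (2.09 to 3.78), which the pseudocount of 1 brought under 2-fold, and with a pseudocount of 0.1 the counts were 1 higher and 5 lower. Zfp281, a zinc finger partner of NANOG, had 7.40 in the ICM and 4.63 in the whole blastocyst, and Thap11, which encodes the stem cell factor Ronin, 7.61 in the ICM and 5.10 in the whole blastocyst. The lowest were Arid3b, with 0.255 in the ICM and 2.47 in the whole blastocyst, and the NuRD subunit gene Rbbp7, with 29.5 in the ICM and 79.6 in the whole blastocyst.

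Of 22 paralogs of the 10 genes that were found, 10 were measured. On the log2(RPKM + 1) scale 1 was 2-fold or more above the whole blastocyst and 5 were below, with a median of -0.57 (3 higher and 2 lower relative to the centre), where 8.96% of all genes tested were higher and 44.0% lower. With a pseudocount of 0.1 there were 3 higher and 5 lower, the RPKM ratios of Sall1 (2.80) and Grhl3 (2.30, 1.49 to 3.62) being over 2. The one higher with the pseudocount of 1 was the ubiquitous octamer factor Pou2f1, with an RPKM of 2.53 (55 reads) in the ICM and 0.271 (7 reads) in the whole blastocyst. The grainyhead-type relatives of Tcfcp2l1 differed from it and from each other. Grhl1 had no ICM read and 378 whole-blastocyst reads, 106-fold lower at the floor of 3 reads and at least 85.9-fold lower by the exact 95% limit. Grhl2, an epithelial factor, had 1.87 in the ICM and 16.5 in the whole blastocyst, Ubp1 8.96 in the ICM and 24.9 in the whole blastocyst, and Grhl3 1.91 in the ICM and 0.828 in the whole blastocyst. Yy1, the parent of Zfp42, had 6.78 in the ICM and 16.8 in the whole blastocyst, and its retrocopy Yy2 had 1.997 in the ICM and 1.64 in the whole blastocyst. Among SOX genes, Sox15 had 2 ICM and 13 whole-blastocyst reads, and Sox21 had an RPKM of 0.917 in the ICM and 1.03 in the whole blastocyst.

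Genes around LIN28 and let-7 were also largely within 2-fold as deposited. Of 18 listed, 13 were measured, none was 2-fold higher in the ICM on the log2(RPKM + 1) scale, 3 were lower and 10 within 2-fold, with a median of -0.58 (1 higher and 1 lower relative to the centre). The 2-fold mark was passed upward by 8.96% of the 8981 genes tested and downward by 44.0% (after centring, 16.9% and 20.5%). Hmga2, a chromatin protein gene that let-7 represses, had an RPKM of 25.4 in the ICM and 12.2 in the whole blastocyst. Its RPKM ratio was 2.07 (1.95 to 2.20), and it counted as 2-fold higher with a pseudocount of 0.1 but not with 1. The let-7 target Trim71 had 20.7 in the ICM and 17.05 in the whole blastocyst, and Igf2bp1 8.68 in the ICM and 9.47 in the whole blastocyst. The lowest were Mycn, with 6.80 in the ICM and 29.9 in the whole blastocyst, and Dgcr8, a subunit of the microRNA processor, with 0.691 in the ICM and 4.06 in the whole blastocyst.

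Of 14 factors of the later, formative and primed epiblast, 3 were measured, with none 2-fold higher and 1 lower (1 higher and none lower relative to the centre). Among all genes tested 8.96% were higher and 44.0% lower. The RPKM filter left out Sox11, with 98 ICM reads and 1 whole-blastocyst read, and Zic2, with 50 ICM reads and 0. It also left out Zic5, with 0 ICM and 21 whole-blastocyst reads. These genes were chosen after their values were seen. Otx2, a homeobox factor of that state, had an RPKM of 3.05 in the ICM and 1.75 in the whole blastocyst. The DNA methyltransferase gene Dnmt3b had 43.0 in the ICM and 47.2 in the whole blastocyst, and Tcf15 1.78 in the ICM and 6.39 in the whole blastocyst.

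Primitive endoderm, the other lineage of the ICM, was also higher in the ICM library: of 14 markers 11 were measured, 8 lay 2-fold or more above the whole blastocyst and 2 lay below, and the summed RPKM was 533.1 in the ICM and 256.5 in the whole blastocyst. Of all genes tested, 8.96% lay 2-fold or more above and 44.0% below. The receptor gene Pdgfra had an RPKM of 68.1 in the ICM and 2.29 in the whole blastocyst, Serpinh1 54.1 in the ICM and 2.78 in the whole blastocyst, and Sparc 316.4 in the ICM and 24.8 in the whole blastocyst, while the endocytic genes Lrp2 (1.38 in the ICM and 128.7 in the whole blastocyst) and Dab2 (2.79 in the ICM and 59.6 in the whole blastocyst) were lower in the ICM. Its part in the differences of the 10 genes was not tested. Of 9 blood and cumulus genes found, 4 were measured, with a summed RPKM over the 9 of 3.16 in the ICM and 27.2 in the whole blastocyst. Cyp19a1 had 91 reads in the ICM and 0 in the whole blastocyst, Star 61 in the ICM and 239 in the whole blastocyst, Cd68 2 in the ICM and 22 in the whole blastocyst, and Cyp11a1 0 in the ICM and 324 in the whole blastocyst.

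The genes with the log2 difference nearest to the 1.73 of Pou5f1, among 5752 genes with 50 or more reads in each library, were Fam13b (1.73), Mpi (1.72) and Lamc1 (1.72). With 2 libraries a pattern is a single difference, so nearness to it describes only that value.

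**Figure D4:**
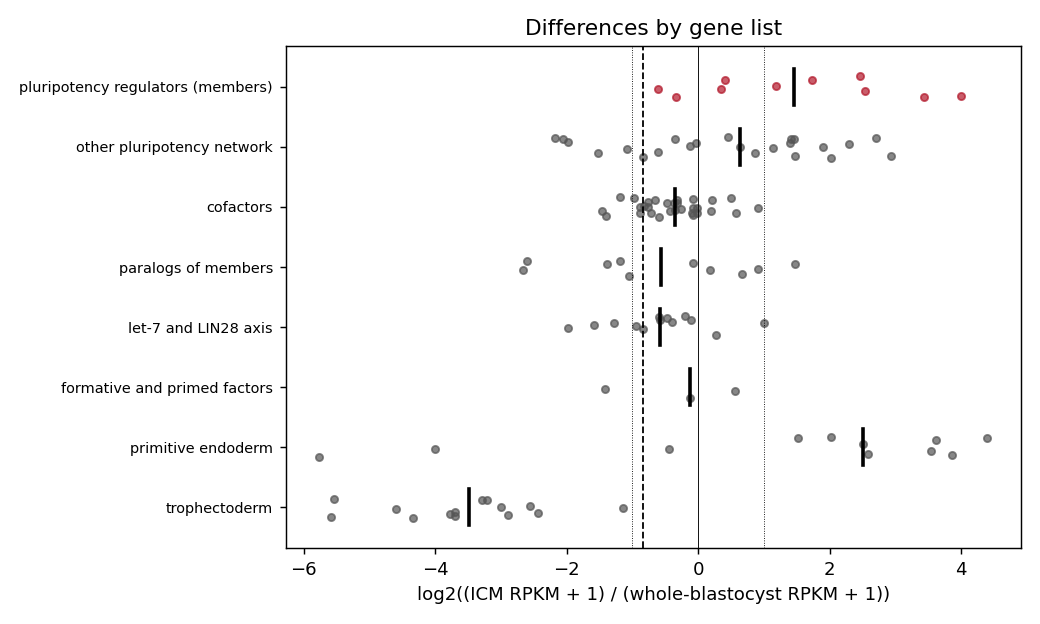
log2((ICM RPKM + 1)/(whole-blastocyst RPKM + 1)) of each measured gene by list, with black bars at list medians, a dashed line at the median of all genes (-0.84), a solid line at 0 and dotted lines at 2-fold. The 10 regulators (red) have a median of 1.46, the cofactors lie between -1.47 and 0.91 and all 14 trophectoderm markers lie to the left of -1.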

How the data were processed

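Per the labels' protocols, PicoPure-extracted RNA was amplified by the NuGEN Ovation kit and sequenced from SOLiD fragment libraries. For each library the authors deposited read counts (whole numbers) and RPKM values by gene symbol. Per the submitters' processing notes they used mm9. The sources used here do not give the aligner, annotation, strand use or treatment of reads with several matches. Values of genes with near-identical copies are therefore uncertain, here Nanog (processed pseudogenes Nanog-ps1 and Nanog-ps2 in GENCODE M21) and Zfp42 (Zfp42-ps1), as are those overlapped by other transcripts (Sox2 lies within Sox2ot on the same strand, and Pou5f1, Sall4, Lin28a and Tfcp2l1 overlap other annotated genes). The library totals that RPKM implies stood at 0.842 (ICM over whole blastocyst), and the sums of listed reads at 0.445.

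Differences were log2((ICM RPKM + 1)/(whole-blastocyst RPKM + 1)) over genes reaching an RPKM of 1 in either library, a scale that understates the change of low genes, and a value of 1 or more in size was counted as 2-fold. Ratios carry exact conditional (Clopper-Pearson) 95% intervals from the reads, and pairs of genes carry exact conditional odds-ratio intervals (scipy 1.17.1, Python 3.11.15). On simulated Poisson counts for 9346 genes of this comparison, 95.5% of intervals held the true ratio. The intervals assume such counts, so this checked the calculation and not the coverage for amplified reads. No p-value was computed. The members and the 8 gene lists were chosen with earlier results of these data known. Of each list the 3 highest and 2 lowest measured genes are named, with all measured paralogs. Alternatives were a pseudocount of 0.1, centring, TPM, quantile normalization, scaling to listed reads (chosen after seeing the data), no filter, and a filter of 50 reads.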

Additional observations from a re-analysis of the deposited data

How the results depend on the processing

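The count of regulators at least 2-fold higher in the ICM was 6 as deposited, with a pseudocount of 0.1, without a filter and with a filter of 50 reads, and 8 after centring, TPM, quantile normalization or scaling to listed reads, which add Sox2 and Sall4. None was 2-fold lower under any of these settings. The median log2 difference of the 10 genes ranged from 1.46 to 2.72. The number of other pluripotency network genes at least 2-fold lower was 5 as deposited and 3 after centring, which shifts every difference by the same amount. Nr0b1 and Nanog rest on few whole-blastocyst reads (0 and 21). No paired analysis was possible because each group has 1 library and no test was made. For the same reason no library could be left out.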
